A study of Mus musculus with 2 samples.

Results

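The miR-125 family of the mouse consists of miR-125a and miR-125b, which come from 3 hairpin genes, Mir125a, Mir125b-1 and Mir125b-2. They are 3 of the 2199 hairpins annotated as miRNA in GENCODE M21 (GRCm38). Their reads were taken as all reads of at least 18 nt that lay in sense and without mismatch inside a hairpin, and were split by arm, by length and by where they began and ended. Counts were scaled to the total reads of the library and are given as CPM.

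Small RNA was sequenced from mesenchymal stem cells (MSCs), fibroblast-like cells of the bone marrow, grown as immortalized monoclonal lines from C57BL/6 mice. The f/f library came from a Dicer f/f line, the wild type of the labels, and the null library from a Dicer -/- line, with 1 library per genotype. Both lines were grown in alpha-MEM with 10% fetal bovine serum, penicillin and streptomycin, were harvested close to confluence and had their 15 to 50 nt RNA cut from a 15% gel. How Dicer was deleted, which exon was removed and what the number 2 at the end of the null title means are not stated in the labels. Since each genotype had a single library, the differences have no replicate check, and neither tests nor p-values are given. Ratios of null to f/f carry the exact conditional 95% interval of 2 counts and shares the exact Clopper-Pearson 95% interval, and these cover counting error only, because PCR copies of a molecule are not independent. These are bulk libraries, in which fewer cells holding an RNA and less of it per cell cannot be told apart.

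A miRNA is made in steps. Drosha with Dgcr8 cuts a hairpin out of the primary transcript, Dicer removes the terminal loop, and an Argonaute protein keeps a single strand of the resulting duplex. The strand from the 5′ side is called 5p and that from the 3′ side 3p, and the bases near its 5′ end, the seed, do most of the pairing with target mRNAs. The miR-125 family is the vertebrate counterpart of lin-4 of Caenorhabditis elegans. It is known for repressing Lin28, pro-apoptotic genes such as Bak1, and Trp53, and for its abundance in neural, mesenchymal and blood stem cells.

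The mature strands, from the RefSeq table for GRCm38.p6, are shown because every read described here is read against them. They run 5′ to 3′ with the seed, bases 2 to 8, in capitals. The 3p strands face the 5p strands in the hairpin, and miR-351-5p belongs to another hairpin that carries the miR-125 seed.
miR-125b-5p: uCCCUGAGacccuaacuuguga
miR-125a-5p: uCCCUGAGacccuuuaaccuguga
miR-125b-1-3p: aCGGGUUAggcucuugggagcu
miR-125a-3p: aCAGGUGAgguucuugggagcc
miR-125b-2-3p: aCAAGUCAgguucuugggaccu
miR-351-5p: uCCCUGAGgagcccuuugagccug

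The 5p strands of miR-125a and miR-125b had the same seed and the same first 13 bases. They were 24 nt and 22 nt long, and aligned with 21 identical bases, 1 mismatch and 2 gap positions. Both copies of miR-125b gave the same mature 5p strand. A 5p read that stays within that strand therefore could have come from either copy, and only a read that runs past it could be given to 1 of them. The 3 strands of the 3p side each had a seed of their own.

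The hairpins Mir125a and Mir125b-1, from the GENCODE transcripts, are shown with the mature arms in capitals, because many null reads run into the bases just past the 5p arm.
Mir125a: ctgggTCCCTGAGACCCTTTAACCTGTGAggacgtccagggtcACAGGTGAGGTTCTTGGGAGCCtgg
Mir125b-1: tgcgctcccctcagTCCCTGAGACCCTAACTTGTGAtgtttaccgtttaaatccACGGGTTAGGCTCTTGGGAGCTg

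Mir125a (68 nt, chr17:17830812-17830879, plus strand, GRCm38) lies in the protein-coding gene Spaca6, a sperm acrosome gene, and an exon of that gene overlaps the hairpin. Mir125b-1 (77 nt, chr9:41581926-41582002, plus strand) lies in introns of the noncoding genes 3110039I08Rik and Gm49317 and in an exon of Gm28119. Mir125b-2 lies in an intron of the noncoding gene Mir99ahg. The span from the first base of the 5p arm to the last of the 3p arm was 60 nt in Mir125a and 62 nt in Mir125b-1. An uncut precursor of that span is longer than the 50 nt upper limit of the gel slice and than the longest read, 36 nt.

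The f/f library held 9943989 reads and the null library 6291599, and the upper limits for a sequence with 0 reads were 0.302 and 0.477 CPM. Hairpin reads made up 59.6% of f/f and 2.17% of null. The MSC label was checked against 6 mesenchymal miRNAs (miR-199a-3p, miR-214-3p, miR-143-3p, miR-145a-5p, miR-21a-5p and miR-22-3p), which summed to 165721 CPM in f/f and to 3010 in null; none was at 0. In null, miR-21a-5p held 2850 of these 3010 CPM, and the other 5 summed to 159.6 CPM, against 139957 in f/f. Because most miRNAs were lower in null, as given below, these sums cannot check the cell type of the null line. A list of 16 miRNAs of neural, muscle, blood, liver, endothelial, epithelial and pluripotent cells summed to 268 and 61.8 CPM, with 3 at 0 in f/f and 5 in null. Most of the f/f sum was miR-206-3p, at 225 CPM in f/f and 0 in null, and without it the list summed to 43.4 and 61.8 CPM. Of the 16, 8 had a higher CPM in null, 5 in f/f, and 3 were at 0 in both. The 4 epithelial miRNAs were all among the 8 and summed to 3.02 and 43.6 CPM, with miR-203-3p highest in null at 20.3. Their part in the results was not tested. The scale also matters to every fold given here: relative to snoRNA and snRNA reads, log2 ratios of null to f/f shifted by -2.12, and relative to hairpin reads by 4.78.

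The family gave 259192 reads in f/f and 1872 in null, or 26065 and 297.5 CPM, 87.6-fold lower in null (83.7 to 91.7). It was 2.61% of all reads in f/f and 0.0298% in null. Among hairpin reads alone its share was also lower, at 4.37% (4.36 to 4.39) in f/f and 1.37% (1.31 to 1.44) in null. The reads comprised 183 distinct sequences, of which 117 were seen in f/f, 105 in null and 39 in both. So the null library, with far fewer reads of the family, held nearly as many different sequences of it, and most of those were not among the f/f sequences. The whole null library was also rich in different sequences, with 909932 against 410792 in f/f, from fewer reads. The overlap of all sequences was not counted, so these counts are no result particular to the family.

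All 5 arms were more than 2-fold lower in null. So were 90.2% of the 295 miRNA species that reached 100 reads in f/f, and the count of arms is near this background. Relative to hairpin reads, 2 of the 5 were instead higher in null, miR-125a-3p by 1.62-fold (1.34 to 1.95) and miR-125b-2-3p by 3.09-fold (1.91 to 4.77). More than 10-fold lower were 4 of the 5 arms, against 76.3% of species, and more than 100-fold lower was 1 arm, miR-125b-1-3p, against 28.5%. The median log2 ratio of the 5 arms was -6.48, and that of the 295 species was -5.18, with quartiles of -6.93 and -3.37. miR-125b-5p was the 8th most abundant species in f/f and the 19th in null, and miR-125a-5p was 40th and 90th. miR-125b-1-3p went from 75th to 227th, miR-125a-3p from 91st to 104th and miR-125b-2-3p from 222nd to 236th.

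**Figure D1:**
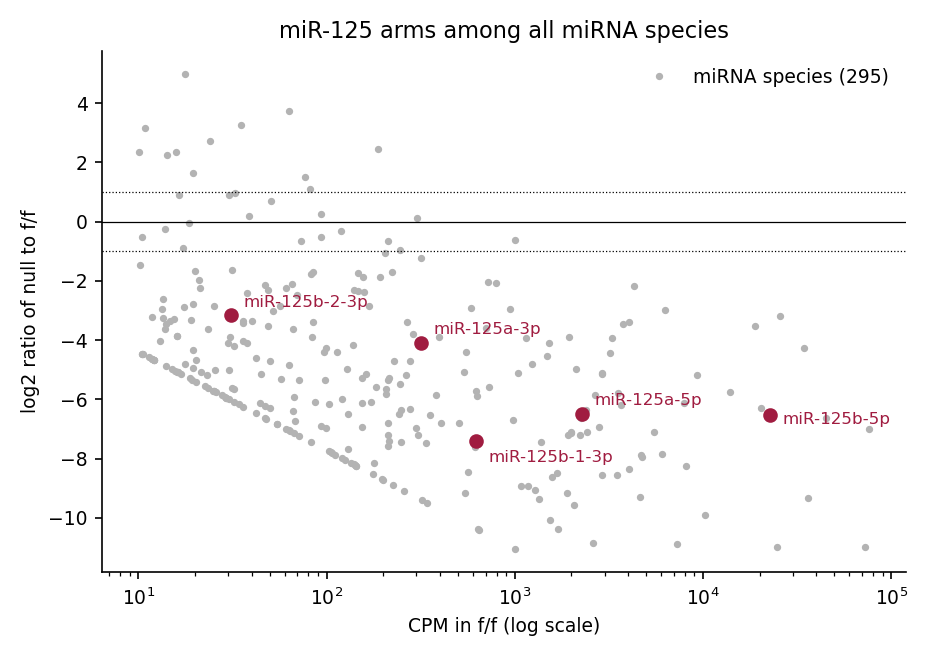
Each grey point is 1 of the 295 miRNA species, by its CPM in f/f (log axis) and the log2 ratio of null to f/f; the 5 miR-125 arms are named, the solid line marks equal CPM and the dotted lines 2-fold. All 5 arms lie below the lower dotted line, and the slanting lower edge is formed by species with few or 0 null reads, where 0 was set to 3 counts.

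miR-125b-5p, the strand that made up 87.5% of the family in f/f, was counted 226847 times in f/f and 1548 times in null. In CPM this was 22812 and 246, 92.7-fold lower (88.2 to 97.5). Most of the reads in null were longer than the mature strand. At 18 to 23 nt there were 226812 reads in f/f and 176 in null, 815-fold lower (703 to 951). At 24 nt or more the order was the opposite, with 35 reads in f/f and 1372 in null, 62.0-fold higher in null (44.3 to 89.3). The long reads were 0.0154% of the strand in f/f (0.0108 to 0.0215) and 88.6% in null (86.9 to 90.2), and the median length went from 22 to 25 nt.

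The exact mature strand of miR-125b-5p, at 22 nt, was read 193258 times in f/f and 56 times in null, 2183-fold lower (1681 to 2891). It was the commonest sequence of the family in f/f and the sixth of its strand in null. The 3 commonest null reads of miR-125b-5p are shown with the bases past the mature end in capitals, because those bases belong to Mir125b-1 and not to Mir125b-2.
25 nt: tccctgagaccctaacttgtgaTGT
27 nt: tccctgagaccctaacttgtgaTGTTT
26 nt: tccctgagaccctaacttgtgaTGTT
The 25 nt read was seen 9 times in f/f and 523 times in null, 91.9-fold higher (48.0 to 202). The 27 nt read was seen 3 times and 379 times, 200-fold higher (67.8 to 973), and the 26 nt read 10 times and 209 times, 33.0-fold higher (17.6 to 69.9). These 3 sequences were nearly absent from f/f, although f/f held more reads in all.

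The 5′ and 3′ ends of miR-125b-5p behaved unlike each other. Its 5′ end was the mature one in 98.1% of f/f reads (98.0 to 98.1) and in 96.9% of null reads (95.9 to 97.7). The mature 3′ end was reached exactly by 86.8% of f/f reads (86.6 to 86.9) but by 3.62% of null reads (2.74 to 4.67). Reads past the mature 3′ end were 0.579% in f/f (0.548 to 0.611) and 94.7% in null (93.5 to 95.8). The seed position was thus the same in nearly all miR-125b-5p reads of both libraries, while the other end was moved outward in null. The reads 2 nt or more past the end numbered 49 in f/f and 1388 in null, 44.8-fold higher in CPM (33.7 to 60.8).

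**Figure D2:**
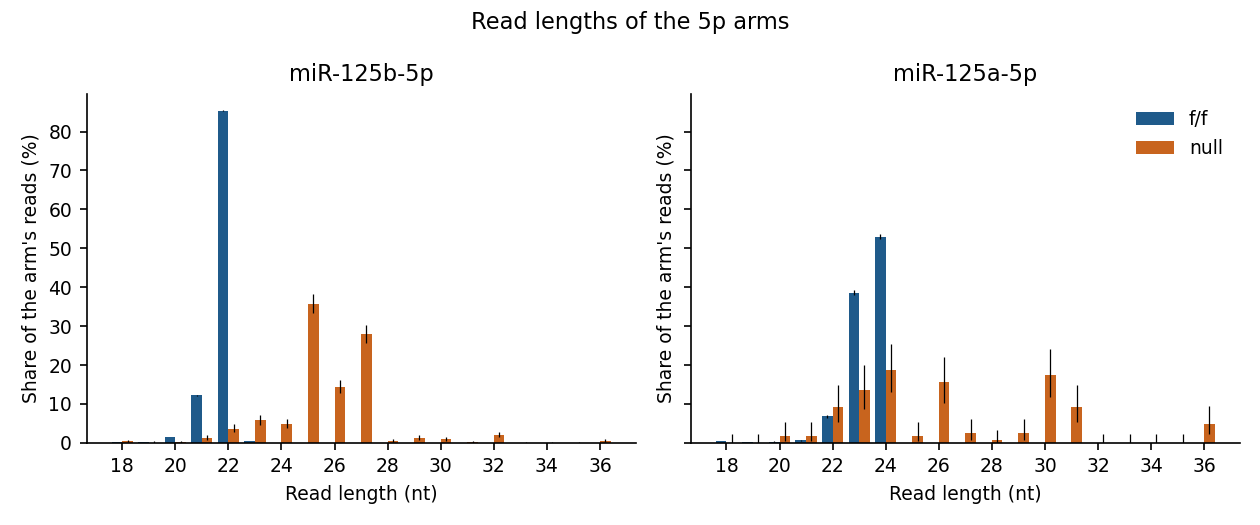
Bars give the share (%) of all reads of the strand at each read length from 18 to 36 nt, in f/f (blue) and null (orange), with exact 95% intervals of counting error. In f/f miR-125b-5p stands at 22 nt and miR-125a-5p at 23 and 24 nt, while in null miR-125b-5p stands at 25 to 27 nt and miR-125a-5p is spread from 22 to 36 nt.

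Reads that could be given to a single copy of miR-125b ran further past the mature 3′ end in null for both genes. Reads of either copy, which by their nature end at or before the mature end, numbered 225533 in f/f and 82 in null, 1740-fold lower (1402 to 2188). Reads that fit Mir125b-1 alone numbered 1145 in f/f and 1341 in null, 1.85-fold higher in CPM (1.71 to 2.005). Those of Mir125b-2 alone numbered 169 and 125, a ratio of 1.17 (0.920 to 1.48) whose interval includes 1. Relative to snoRNA and snRNA reads both were lower in null, Mir125b-1 by 2.35-fold (2.17 to 2.54) and Mir125b-2 by 3.72-fold (2.93 to 4.72), so their direction depended on the scale. All reads given to 1 copy ran past the mature end, by 1 nt for most in f/f and by more in null.

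Among reads of Mir125b-1 alone, 96.8% of f/f reads (95.6 to 97.7) ended 1 nt past the mature end, and 5.59% of null reads (4.42 to 6.96) did. The null reads ended mainly 3 nt past it (530 reads, 39.5%), 5 nt past it (393 reads, 29.3%) and 4 nt past it (211 reads, 15.7%). For Mir125b-2 alone, 92.9% of f/f reads (87.9 to 96.3) ended 1 nt past, and null reads peaked 5 nt past (58 reads, 46.4%) and 3 nt past (29 reads, 23.2%). Both copies thus shared the 2 end positions, 3 and 5 nt past the mature end, in swapped order of size. At 24 nt or more Mir125b-1 had 32 reads in f/f and 1255 in null, 62.0-fold higher (43.7 to 91.0), and Mir125b-2 had 3 and 117, 61.6-fold higher (20.6 to 303). The share of Mir125b-1 among these long reads was 91.4% in f/f (76.9 to 98.2) and 91.5% in null (89.9 to 92.9), which differed by less than the counting error.

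A 23 nt read that adds a single T to the mature strand was seen 704 times in f/f and 75 times in null. T is the next base of Mir125b-1, so a templated end and an added uridine cannot be told apart for this read, and the 1 nt extensions given to Mir125b-1 in f/f are uncertain for that reason. In f/f, 388 of the 1145 reads of Mir125b-1 alone also began 1 base later than the mature strand, against 8 of 1341 in null.

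**Figure D3:**
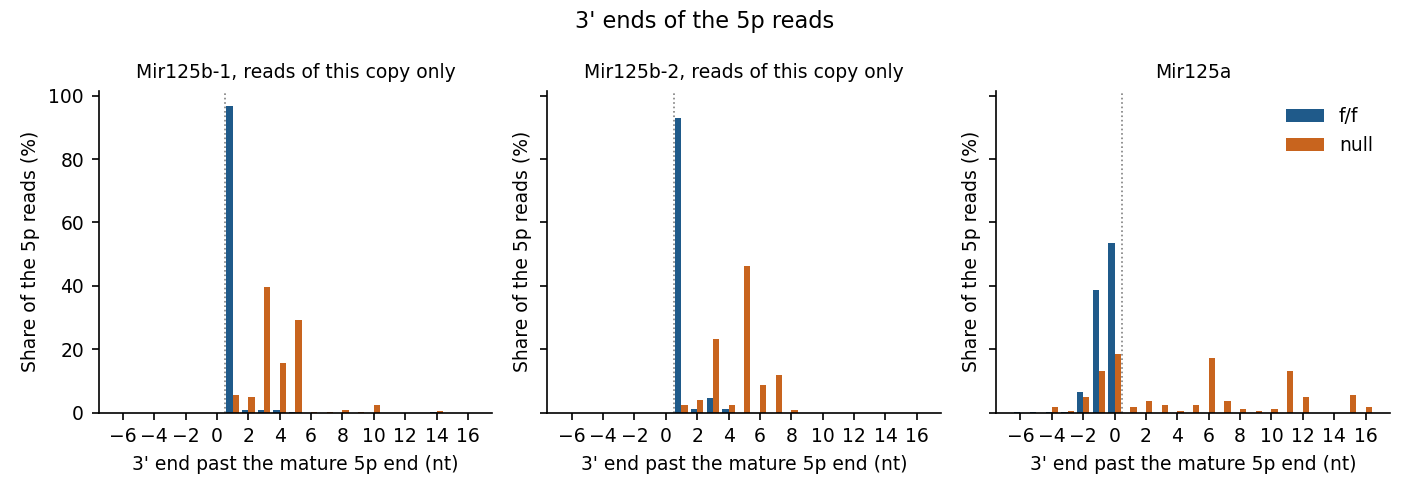
Bars give the share (%) of 5p reads by the distance in nt of their 3′ end from the mature end (0, left of the dotted line), for reads that fit only Mir125b-1, only Mir125b-2, or Mir125a, in f/f (blue) and null (orange); all but a few reads fall within the axis. Reads of a single miR-125b copy start at 1 nt by construction; in null they peak at 3 and 5 nt, and those of Mir125a at 0, 6, 11 and -1 nt.

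miR-125a-5p, which has the same seed and is 2 nt longer, was less abundant than miR-125b-5p in both libraries. It gave 22680 reads in f/f and 161 in null, or 2281 and 25.6 CPM, 89.1-fold lower (76.3 to 105). Its interval overlapped that of miR-125b-5p, so the strands did not differ in ratio beyond counting error. In f/f its reads were split between the 24 nt mature strand (12018 reads) and the strand that lacks the last base (8710 reads). Because the mature strand is itself 24 nt, 53.0% of f/f reads were of 24 nt or more, and the length window that separates the libraries for miR-125b did not separate them here. From 25 nt on there were 7 reads in f/f and 88 in null, 19.9-fold higher (9.25 to 50.9), or 0.0309% (0.0124 to 0.0636) and 54.7% (46.6 to 62.5) of the strand.

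The null reads of miR-125a-5p were less uniform than those of miR-125b-5p. The commonest were the mature strand and a 30 nt read, with 28 reads each, and the mature strand was 272-fold lower than in f/f (188 to 409). The 30 nt read and the next long ones are shown with the bases past the mature end in capitals.
30 nt, from position 6: tccctgagaccctttaacctgtgaGGACGT
26 nt, from position 15: ccctttaacctgtgaGGACGTCCAGG
31 nt, from position 14: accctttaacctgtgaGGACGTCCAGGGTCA
The 30 nt read was at 0 in f/f, so it was at least 11.2-fold higher in null. The 26 nt read, with 0 and 19 reads, was at least 7.38-fold higher, and the 31 nt read, with 0 and 9, at least 3.12-fold higher. Positions are counted from 1 at the first base of the hairpin, where the 5p arm starts at 6, so the last 2 sequences begin within the arm and lack the seed.

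Fewer null reads of miR-125a-5p kept the mature 5′ end: 98.8% in f/f (98.7 to 98.95) and 75.2% in null (67.7 to 81.6). This differed from miR-125b-5p as a whole, where 96.9% of null reads kept it (95.9 to 97.7). By copy, 98.2% of null reads of Mir125b-1 alone kept it (97.35 to 98.85). For Mir125b-2 alone it was 81.6% of 125 null reads (73.7 to 88.0), an interval that overlapped that of miR-125a-5p. The mature 3′ end was reached by 53.7% of f/f reads (53.0 to 54.3) and 18.6% of null reads (12.9 to 25.5). Reads past it were 7 of 22680 in f/f and 98 of 161 in null, 22.1-fold higher in CPM (10.3 to 56.5), and those 3 nt or more past it were 0 and 89.

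Where the extended reads ended was set beside the stem and loop that RNAfold predicts, which are predictions and not measured. In Mir125a the predicted loop ran from position 30 to 41, and the 30 nt read ended at 35, inside it. In Mir125b-1 the loop ran from 43 to 47 with paired bases up to 42, and the 3 commonest null reads ended at 39, 41 and 40, in the upper stem. In Mir125b-2 the mature 5p end lay at 28, with paired bases up to 31 and the loop from 32 to 40. The commonest null ends of this copy alone, 5 and 3 nt past the mature end, fell in the loop and on the last pair.

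The 3p strands are the passenger side of this family and made up 3.73% of its reads in f/f (3.66 to 3.803) and 8.71% in null (7.47 to 10.1). miR-125b-1-3p had 6192 reads in f/f and 23 in null, 170-fold lower (113 to 269). miR-125a-3p had 3164 and 118 reads, 16.97-fold lower (14.1 to 20.6). miR-125b-2-3p had 309 and 22 reads, 8.89-fold lower (5.77 to 14.4). The intervals of miR-125b-1-3p and of the other 3p strands did not overlap. Mir125b-1 gave 95.3% of the miR-125b 3p reads in f/f (94.7 to 95.8) and 51.1% in null (35.8 to 66.3), on 45 null reads in all. Within Mir125a, the 3p strand went from 12.2% of the hairpin's reads (11.8 to 12.6) to 42.3% (36.4 to 48.3).

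On the 3p side the 5′ ends differed in all 3 strands, and so did some of the 3′ ends. Of miR-125a-3p reads, 92.7% began at the mature base in f/f (91.8 to 93.6) and 7.63% in null (3.55 to 13.99). In null, 48 of the 118 reads began 3 bases upstream, and 0 of 3164 did so in f/f. In all, 61.9% of null reads (52.5 to 70.7) began upstream of the mature base and 30.5% (22.4 to 39.7) downstream of it, against 0.0948% (0.0196 to 0.277) and 7.17% (6.30 to 8.13) in f/f, so that its null starts were spread to both sides. The shared 3′ end, at the last base of the mature strand, held 45.9% of f/f reads (44.1 to 47.7) and 51.7% of null reads (42.3 to 61.0). A few null reads ended far before it, 4 of them by 13 bases and 3 by 14, with 0 f/f reads at either place. The leading reads of each library are shown, with bases upstream of the mature strand in capitals.
miR-125a-3p, leading in f/f: acaggtgaggttcttgggagcc
miR-125a-3p, leading in null: GTCacaggtgaggttcttgggagcc
miR-125b-1-3p, leading in f/f: acgggttaggctcttgggagct
miR-125b-1-3p, leading in null: Cacgggttaggctcttgggagc
The first had 1297 reads in f/f and 6 in null, and the second 0 and 29, at least 11.65-fold higher in null. Reads of miR-125a-3p of 24 nt or more were 0 in f/f and 56 in null, at least 23.2-fold higher. In these longer reads the added bases lie on the loop side, as they do on the 5p arm, but move the seed position.

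For miR-125b-1-3p, 93.5% of f/f reads began at the mature base (92.9 to 94.1), and none of the 23 null reads did, which allows a share of up to 14.8%. The leading f/f read was at 2002 and 0 reads, and the leading null read, which begins 1 base upstream, at 63 and 5. The commonest f/f 3′ end of miR-125b-1-3p lay 1 base before the mature end. It held 33.35% of f/f reads (32.2 to 34.5) and 26.1% of null reads (10.2 to 48.4). The end 2 bases before the mature end held 28.1% of f/f reads and 0 of the 23 null reads. The 22 null reads of miR-125b-2-3p were scattered: no sequence had more than 4, and 2 were the mature strand, against 56 in f/f. The commonest f/f 3′ end, 1 base before the mature end, held 46.6% of f/f reads (40.9 to 52.3) and 0 of 22 null reads (up to 15.4%), while 10 null reads and 0 f/f reads ended 8 bases before it. Its reads of 24 nt or more were 0 and 10, at least 3.54-fold higher in null. With so few null reads, the makeup of these 2 strands in null was barely measurable at this depth.

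**Figure D4:**
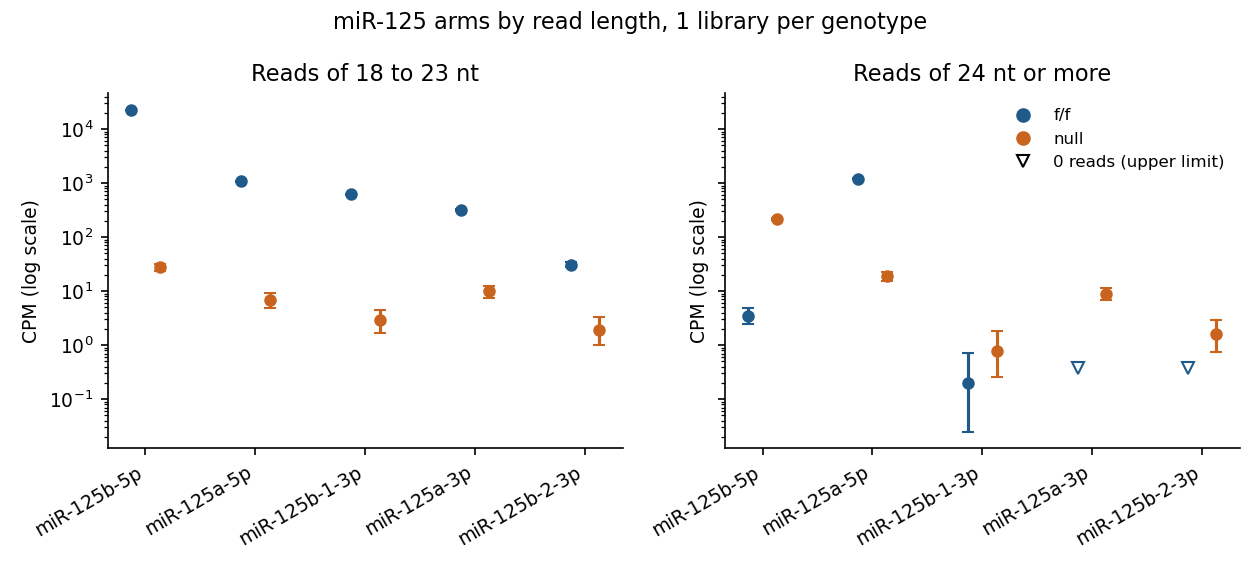
Points give the CPM (log axis) of each arm in f/f (blue) and null (orange), with exact 95% intervals of counting error. Reads of 18 to 23 nt are on the left and those of 24 nt or more on the right. Open triangles mark 0 reads, at the upper end of the exact interval (0.371 CPM in f/f) and not at the floor of 3 counts. At 18 to 23 nt all 5 arms are lower in null; at 24 nt or more only miR-125a-5p, whose mature strand is 24 nt, is lower in null, and for miR-125b-1-3p, with 2 and 5 reads, the intervals overlap.

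By length window, all 5 arms were more than 2-fold lower at 18 to 23 nt, against 96.1% of the 283 species with at least 100 such reads in f/f. More than 2-fold higher at 24 nt or more were 4 of the 5 arms, all but miR-125a-5p, against 44.1% of the 295 species. At 25 nt or more 4 of the 5 were, all but miR-125b-1-3p, against 50.8%. At 24 nt or more miR-125b-1-3p rested on 2 and 5 reads, with an interval that includes 1 (0.647 to 41.5), and miR-125b-2-3p on 0 and 10. Their log2 ratios of 1.98 and 2.40 do not stay above 1 with the shift of -2.12 for snoRNA and snRNA reads. The share of species on that scale was not counted. Over the 89 species with at least 100 reads in each library, the median share of null reads of 24 nt or more was 76.7%, and of 25 nt or more 53.4%. miR-125b-5p, at 88.6%, had 18 species above it by the first measure, and at 83.7% it had 8 above it by the second. miR-125a-5p, at 73.3% and 54.7%, lay near both medians. Long reads in null were therefore common among miRNAs, and miR-125b-5p was toward the high end.

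miR-351-5p, which shares the miR-125 seed but comes from a hairpin on another chromosome, was less reduced in null. It gave 1573 reads in f/f and 193 in null, 5.16-fold lower (4.44 to 6.02), an interval that did not overlap those of miR-125a-5p and miR-125b-5p. Its reads of 18 to 23 nt were 8.63-fold lower (6.93 to 10.8), and those of 25 nt or more numbered 5 in f/f and 103 in null. The remaining hairpins with this seed in the RefSeq table, Mir6367 and Mir6394, had 0 reads in both libraries. With all reads as the denominator, all detected strands with the miR-125 seed were thus lower in null, miR-351-5p by less than the others. Its log2 ratio of -2.37 turns positive with the shift of 4.78 for hairpin reads, so its direction depended on the scale. Relative to hairpin reads, miR-125a-5p and miR-125b-5p stayed lower in null, at -1.70 and -1.75.

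Each member lies in a cluster with a let-7 gene and a gene of the miR-99/100 family, which are processed from the same region. Beside Mir125a, let-7e-5p was 15.3-fold lower (14.5 to 16.2), with 83.7% of its null reads at 24 nt or more, and miR-99b-5p was 174-fold lower (132 to 235), with 50 null reads of which 10% were that long. Beside Mir125b-1, let-7a-5p, which also has other copies, was 53.3-fold lower (50.7 to 55.9), and miR-100-5p 38.7-fold lower (26.1 to 60.03), with 60% of its 25 null reads at 24 nt or more. Beside Mir125b-2, let-7c-5p, also made by another copy, was 128-fold lower (124 to 132), and miR-99a-5p 14.9-fold lower (13.9 to 16.0). The intervals of the let-7 and miR-99/100 neighbours did not overlap in the Mir125a and Mir125b-2 clusters, and did in the Mir125b-1 cluster. The interval of miR-125b-5p, 88.2 to 97.5, overlapped that of neither neighbour of Mir125b-1. Because let-7a-5p, let-7c-5p and miR-125b-5p also come from other copies, their ratios are not those of a single cluster. At 25 nt or more, let-7e-5p had 9 reads in f/f and 806 in null, let-7c-5p 39 and 2270, and miR-99a-5p 0 and 138, while miR-99b-5p had 1 and 0 and miR-100-5p 0 and 0.

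By read lengths in null, the species most like miR-125b-5p were let-7g-5p, miR-34a-5p and let-7i-5p, with summed absolute differences of length shares of 0.460, 0.481 and 0.504, against a median of 1.07 over 67 species with at least 1000 f/f and 100 null reads. Those most like miR-125a-5p were miR-28a-5p (0.693), miR-31-3p (0.712) and let-7e-5p (0.746), against a median of 0.989. By level in the 2 libraries, miR-125b-5p was closest to let-7f-5p, with 202394 f/f and 1629 null reads, and miR-125a-5p to miR-195a-5p, with 22477 and 144.

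Just outside the hairpins lay reads that were more frequent in null. Their 3′ end was the base before the 5p arm, so that they and the 5p strand meet end to end. They were looked at after the values had been seen. The commonest at Mir125a are shown with the hairpin's own bases in capitals and the upstream bases, part of the Spaca6 exon, in lower case.
19 nt, chr17:17830798-17830816: tacactgccggcctCTGGG
20 nt, chr17:17830797-17830816: ctacactgccggcctCTGGG
18 nt, chr17:17830799-17830816: acactgccggcctCTGGG
The 19 nt read was counted 122 times in f/f and 1032 times in null, the 20 nt read 77 and 1036 times, and the 18 nt read 127 and 806 times. All lengths of 18 nt or more came to 333 reads in f/f and 2975 in null, or 33.5 and 473 CPM, 14.1-fold higher (12.6 to 15.9). Relative to snoRNA and snRNA reads the ratio was 3.25 (2.90 to 3.65), and relative to hairpin reads 388 (347 to 436), so its size depended on the scale and its direction did not. In f/f there were 1.47 such reads per 100 reads of miR-125a-5p, and in null 18.5 per read of it, so the adjoining fragment outnumbered the 5p strand in null only. For comparison, exon fragments of mRNA and lncRNA genes as a whole were 4.81-fold higher (4.78 to 4.84).

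Such adjoining reads were counted at 32 hairpins that had at least 1000 f/f 5p reads and 24 annotated bases upstream. Mir125a had the most of them in null. Of the 14 hairpins with at least 10 such f/f reads, 13 (92.9%) were more than 2-fold higher in null and 0 were more than 2-fold lower. The median of these ratios was 4.31. Relative to snoRNA and snRNA reads the median of the 14 was 0.992. On that scale 2 of the 14, Mir125a and Mir25, were more than 2-fold higher and 2 more than 2-fold lower. Among the 14 the general direction thus depended on the scale and that of Mir125a did not. Mir125a ranked second of the 14 after Mir25, at 16.0-fold (10.5 to 25.5), and their intervals overlapped. The limit of 10 f/f reads left out hairpins that are low in f/f, so this rank holds for the 14 only. Of those left out, Mirlet7c-2 had 1 and 65 reads, 103-fold higher in null (17.8 to 4119), and Mir199a-2 had 1 and 1. At Mir125b-1, reads that end right before the 5p arm numbered 5 and 26, 8.22-fold higher (3.11 to 27.4), and reads that start right after the 3p arm 16 and 34, 3.36-fold higher (1.80 to 6.52). At Mir125b-2, reads right after the 3p arm numbered 0 and 8, at least 2.70-fold higher. The side past the 3p arm of Mir125a and the side before the 5p arm of Mir125b-2 were not analysed here.

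**Figure D5:**
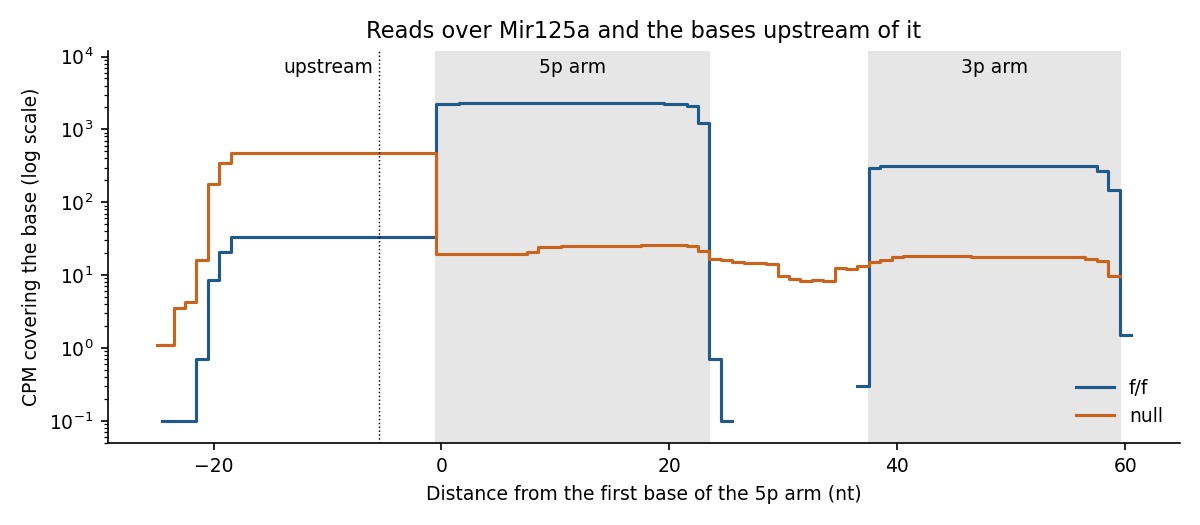
Lines give the CPM (log axis) of reads that cover each base of Mir125a and of the bases before it, by distance in nt from the first base of the 5p arm, in f/f (blue) and null (orange); grey bands are the mature arms and the dotted line is the start of the hairpin. Null lies above f/f up to the first base of the 5p arm and between the arms, and below it on both arms.

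Between its arms Mir125a was covered in null and hardly in f/f, as the map of the hairpin shows. The reads there were the 26 and 31 nt reads and those that extend from either arm. No read of either library covered a whole hairpin, which would be longer than a read.

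The host genes were seen as fragments of their exons. Spaca6 gave 342 reads in f/f and 2994 in null, nearly all of them the adjoining reads of Mir125a. 3110039I08Rik gave 12 and 38 reads, 5.005-fold higher in null (2.56 to 10.5), and Mir99ahg 13 and 35, 4.26-fold higher (2.20 to 8.76). Gm28119 gave 31 and 70, 3.57-fold higher (2.31 to 5.64), most of them in the place of the adjoining reads of Mir125b-1 given above. C130023A14Rik gave 1 and 8, and its 8 null reads match in number and place those right after the 3p arm of Mir125b-2. These counts are therefore not separate from those of the adjoining reads. Gm49317 gave none. The intervals of 3110039I08Rik, Mir99ahg and Gm28119 included the 4.81 of the whole class.

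mRNAs known as targets of miR-125 were seen only as short fragments, which are not a measure of mRNA level. A list of 18 such genes had 113 reads in f/f and 274 in null, 3.83-fold higher (3.07 to 4.82), an interval that just includes the 4.81 of all mRNA and lncRNA exons. Of the 18, 3 (Lin28a, Irf4 and Bmpr1b) had no reads. Among the 11 with at least 10 reads in the libraries together, 8 had a ratio whose interval lay above 1, as did 86.2% of the 13536 genes with that many reads, so the count is no result about the targets. Stat3, a cytokine-activated transcription factor, had 28 and 54 reads, 3.05-fold higher (1.90 to 4.998). Prdm1, a transcriptional repressor of B cells, had 29 and 27, a ratio of 1.47 (0.838 to 2.58), and Ets1, a transcription factor, 23 and 15, a ratio of 1.03 (0.5002 to 2.06). Bak1, a pro-apoptotic gene, had 1 and 12 reads, 19.0-fold (2.81 to 811), Trp53 had 4 and 32, 12.6-fold (4.48 to 49.2), and Lin28b, which encodes an RNA-binding protein that blocks let-7, 0 and 8. Individual target genes therefore rested on few reads.

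Of the 10 genes of the miRNA machinery, 9 had at least 10 reads and all 9 had an interval above 1, against the same 86.2% of genes. Together the 10 had 142 reads in f/f and 600 in null, 6.68-fold higher (5.55 to 8.08). Ago2, the Argonaute that can cleave its target, had 72 and 237 reads, 5.20-fold (3.98 to 6.87). Dgcr8, the partner of Drosha, had 37 and 104, 4.44-fold (3.03 to 6.65). Ago3 had 6 and 107, 28.2-fold (12.5 to 78.5). Prkra, a Dicer partner, was the exception, with 4 and 0 reads. Dicer1 itself had 16 and 44 reads, 4.35-fold (2.40 to 8.25), near the ratio of all exon fragments, and since the deleted exon is not stated these reads did not check the genotype.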

How the data were processed

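Small RNA from 1 f/f and 1 null MSC line was analysed. The authors deposited raw counts in files without a header, in which every distinct read sequence has its number of reads. The submitters' processing notes name mm9 as genome build. For trimming and alignment, the tools are not given in the sources. The longest reads are of 36 nt, so longer inserts would end there. Some 36 nt reads instead left a hairpin with the same bases, the start of CTGTAG, and whether these are adapter was not tested. No reads of 35 nt are listed, and few of 34 nt (366 in f/f, 2508 in null).

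Matching took reads from 18 nt up, in sense and without mismatch, to GENCODE M21 transcripts (GRCm38). Arms followed the side of the hairpin midpoint. CPM used all reads of a file. RefSeq sequences are those of GRCm38.p6. The sequence of the Mir125b-2 hairpin is not reported here. The RefSeq table matched the arms of all 3 members. Groups came from the genotype label. The 2 libraries held 9943989 and 6291599 reads. A log2 ratio against 0 used a floor of 3 counts over the library. A fold given as at least is the lower limit of its exact 95% interval. All arms of the members, seed mates, cluster neighbours, host genes and the 3 species most like each 5p strand were named by rule. Adjoining reads, Mir25, Mirlet7c-2 and Mir199a-2 were chosen after their values were seen. The members and lists were chosen with earlier results of these data known. Alternatives changed the denominator, the range of lengths, the copy number needed, the mismatch rule and the arm rule. On simulated data for null against f/f, 400 of 400 hairpin reads and 0 of 400 shuffled reads were matched, and intervals of ratios covered the known fold in 95.5% of 200 simulated species at fold 1, 92% of 50 at fold 4, 96% of 50 at fold 30 and 100% of 50 at fold 200. These checks cover neither PCR copies nor variation between libraries. Python 3.11.15, numpy 2.4.6, scipy 1.17.1, matplotlib 3.10.9, Biopython 1.88 and RNAfold 2.7.2 were used.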

Additional observations from a re-analysis of the deposited data

How the results depend on the processing

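Values are log2 ratios of null to f/f, in the order family, miR-125a-5p and miR-125b-5p; with all reads as the denominator they were -6.45, -6.48 and -6.53. With reads of 18 nt or more as the denominator they were -6.32, -6.34 and -6.40. With hairpin reads they were -1.67, -1.70 and -1.75, with reads matched to a transcript -4.70, -4.72 and -4.78, and with snoRNA and snRNA reads -8.57, -8.60 and -8.65. At 18 to 23 nt they were -8.97, -7.29 and -9.67, and at 18 to 24 nt -8.55, -7.62 and -9.15. At 24 nt or more they were -2.29, -6.01 and 5.95, and at 25 nt or more 6.02, 4.31 and 6.19: the direction turned with the length window, since short and long reads moved in opposite directions. Ignoring the last 3 nt gave -6.35 for the family, and allowing 1 mismatch -6.39. The other alternatives for these 3, among them 36 nt reads ending in the bases CTGTAG, added after the data were seen, stayed within the interval of the main value. Of 41 alternatives for the 3p strands, 34 stayed below 0. The others at 24 nt or more were miR-125a-3p at 4.88 and miR-125b-2-3p at 2.40, both against the floor of 3 counts. There miR-125b-1-3p was at 1.98, on 2 and 5 reads. At 25 nt or more they were miR-125a-3p at 4.32 and miR-125b-2-3p at 2.40, again against the floor. With hairpin reads as the denominator they were miR-125a-3p at 0.70 and miR-125b-2-3p at 1.63. For miR-125b-1-3p at 25 nt or more, with 0 and 3 reads, no value was given. Chosen after the data were seen, snoRNA and snRNA reads as the denominator took reads of Mir125b-1 alone from 0.89 to -1.23 and those of Mir125b-2 alone from 0.23 to -1.89, and the hairpins with adjoining reads more than 2-fold higher in null from 13 to 2. Species more than 2-fold lower in null were 266 of 295, 411 of 517 with at least 10 f/f reads and 150 of 156 with at least 1000. No paired analysis was possible because there was 1 library per genotype, and no library could be left out. Depth limits the 3p strands of both miR-125b copies, with 23 and 22 null reads, and miR-125a-5p, with 161.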

Other observations

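Reads that follow a 5p strand for at least 20 nt and then carry 1 to 3 bases that the hairpin does not have are no part of the counts in the report. For miR-125b-5p, tails of A only were 1.56% of f/f reads (1.51 to 1.61, 3602 reads) and 0.491% of null reads (0.212 to 0.964, 8 reads), and tails of U only 0.571% (0.541 to 0.603, 1321 reads) and 2.02% (1.40 to 2.83, 33 reads). For miR-125a-5p, tails of U only were 2.37% in f/f (2.18 to 2.57, 558 reads) and 3.03% in null (0.832 to 7.58, 4 reads), and tails of A only 1.02% (0.894 to 1.15, 240 reads) and 3.79% (1.24 to 8.62, 5 reads). In f/f, A was the more frequent tail on miR-125b-5p and U on miR-125a-5p. A U tail of 1 base on miR-125b-5p is also the next base of Mir125b-1 and is not among these.

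Some 36 nt reads followed the miR-125b-5p side of Mir125b-1 for 33 to 35 nt and left it with the first bases of CTGTAG: 1 in f/f and 63 in null. Neither library lists reads of 35 nt, and 34 nt reads number 366 in f/f and 2508 in null. Reads of 15 to 17 nt that end right before the 5p arm of Mir125a numbered 21 in f/f and 354 in null, and were not counted with the longer ones.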
